A study of Mus musculus with 20 samples.

Results

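The constitutive proteasome genes were taken as every row of both single-cell RNA sequencing (scRNA-seq) tables whose symbol began with Psma to Psmg followed by a digit, without pseudogenes and without the immunoproteasome subunits Psmb8, Psmb9 and Psmb10. The rule found 46 genes among the 15855 genes of the culture table, and the same 46 among the 15333 genes of the tumor table. They comprised 15 core particle genes (8 Psma genes of the alpha ring and 7 Psmb genes of the beta ring), 20 regulatory particle genes (6 Psmc ATPases and 14 Psmd non-ATPases), 5 Psme activators, the inhibitor Psmf1 and 4 Psmg assembly chaperones. The remaining gene, Psmc3ip, is a factor of meiotic recombination that shares only the symbol pattern, and it was counted with none of these groups. The groups follow the symbols. Psmd5, Psmd9 and Psmd10, assembly chaperones of the regulatory particle, were therefore counted with the non-ATPases. Sem1 and Adrm1, subunits of the regulatory particle with other symbols, were left out of it and counted with the genes that act with the proteasome. Psme2b is a near-identical copy of Psme2, so reads of the 2 genes may be split between them and its values are uncertain.

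The study followed mouse macrophages made from B cells (B-MF) and from monocytes (Mo-MF) of bone marrow (BM). Both were cultured in medium conditioned by the 4T1.2 mouse breast cancer line (4T1.2-CM), and each was represented by 2 libraries. Tumor macrophages were sorted from mice with 4T1.2 cancer and gave 4 libraries, numbered 2 to 5 in the table and not matched to single mice here. ATAC-seq, which maps open chromatin, covered CSF1R+ and CSF1R- cells of BM and spleen of naive mice with 3 libraries each. The labels call these cells macrophages, whereas the study describes them as B-cell precursors and immature B cells with or without CSF1R, the M-CSF receptor. Nothing in the labels says that the 2 culture libraries of a group came from separate cultures or mice, so p-values measure the spread between libraries, which may be technical.

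The culture libraries held 4846 to 5389 cells and the tumor libraries 2318 to 3180. Values are corrected counts, that is, transcript counts per cell after SCTransform had brought the cells of a table to a common depth. The median cell summed to 18350 to 19469 corrected counts in the cultures and to 7651 to 8266 in the tumor table. A lower value is therefore a smaller share of a cell's transcripts, and the amount of RNA per cell cannot be read from it. The 2 tables were normalized separately, so levels were compared within a table only. Of 20753 barcodes in the cultures 45 occurred in more than 1 library, and 13 of the 10872 tumor barcodes did.

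The labels were set against marker genes. Clusters that met macrophage markers held 86.0% and 88.8% of B-MF cells and 50.1% and 51.9% of Mo-MF cells. A further 34.4% and 33.3% of Mo-MF cells lay in clusters left unnamed, most of them in one led by Bex1 and Arg1. The 8 macrophage markers themselves summed to 263.1 and 251.7 corrected counts a cell for B-MF, below the 575.3 and 565.6 for Mo-MF. Such a sum is weighted toward the most abundant markers and does not give the direction of each. Mrc1, among these markers, was reported by the study as markedly higher in B-MF. The 6 B-cell markers summed to only 0.13 and 0.12 corrected counts a cell for B-MF, against 0.11 and 0.10 in Mo-MF. Neutrophil-like clusters held 10.3% and 9.45% of Mo-MF cells, 3 cells of the first B-MF library and none of the second. This was at a clustering resolution of 0.5, where 2 culture clusters of 517 and 495 cells were so named. At 0.25 a single cluster of 517 cells was, and at 1.0 clusters of 395 and 154 cells were. In the tumor libraries, labelled as macrophages, neutrophil-like cells made up 36.9%, 63.2%, 48.4% and 56.4%. These shares touch several results and are given again beside them.

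Proteasomes are the machines that degrade most short-lived and damaged proteins of a cell. The core particle is a barrel of 2 outer alpha rings and 2 inner beta rings, in which Psmb5 carries the chymotrypsin-like, Psmb6 the caspase-like and Psmb7 the trypsin-like active site. The regulatory particle caps the barrel, where non-ATPases bind and release ubiquitin and the ATPases unfold the substrate and thread it in. In cells of the immune system Psmb8, Psmb9 and Psmb10 can take the places of Psmb5, Psmb6 and Psmb7, which changes the peptides left for presentation on MHC class I, and Psme1 with Psme2 forms an activator induced by interferon-gamma.

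All but 1 of the proteasome gene starts that could be examined lay in open chromatin in every ATAC-seq library. A start window of 300 bases (250 before the start of the gene and 50 after, RefSeq, GRCm38) was given for 38 of the 46 genes. In 37 of them a peak overlapped the window in all 12 libraries, while Psme2b had no peak in any library. Where a gene had several windows, the one with a peak in the most libraries was kept. This favors peaks in all 12 libraries, for proteasome genes and all genes alike. Among all 6868 genes tested below that had a window, 87.4% had a peak in all 12 libraries, and the count of proteasome genes is read against that share. The median fold enrichment of the 37 peaks over the local background, as the peak caller gave it, was 19.4 to 23.7 across libraries, against 16.1 to 20 for all genes with a peak. The windows of 2 catalytic subunits and of the 2 regulatory particle genes that passed the test of B-MF against Mo-MF are shown as examples. A link between these windows and the comparison of B-MF with Mo-MF was not tested.
Psmb5, chr14:54617946-54618245, minus strand: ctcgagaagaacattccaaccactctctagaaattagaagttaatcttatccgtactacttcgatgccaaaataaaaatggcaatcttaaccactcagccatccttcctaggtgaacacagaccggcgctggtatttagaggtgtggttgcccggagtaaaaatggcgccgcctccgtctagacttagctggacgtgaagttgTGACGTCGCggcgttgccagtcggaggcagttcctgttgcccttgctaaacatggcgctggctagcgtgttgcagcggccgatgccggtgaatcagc
Psmb6, chr11:70525107-70525406, plus strand: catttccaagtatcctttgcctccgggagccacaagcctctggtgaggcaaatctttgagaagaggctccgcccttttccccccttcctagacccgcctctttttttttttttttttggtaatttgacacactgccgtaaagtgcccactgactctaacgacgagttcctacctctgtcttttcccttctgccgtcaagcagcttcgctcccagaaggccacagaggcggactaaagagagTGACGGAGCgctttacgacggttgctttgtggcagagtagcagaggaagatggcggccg
Psmd6, chr14:14120896-14121195, minus strand: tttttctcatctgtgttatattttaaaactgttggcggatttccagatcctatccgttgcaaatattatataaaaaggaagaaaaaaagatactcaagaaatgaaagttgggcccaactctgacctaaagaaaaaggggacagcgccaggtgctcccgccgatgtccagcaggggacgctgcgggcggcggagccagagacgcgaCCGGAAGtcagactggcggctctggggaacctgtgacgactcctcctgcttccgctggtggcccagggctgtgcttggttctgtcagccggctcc
Psmd2, chr16:20651402-20651701, plus strand: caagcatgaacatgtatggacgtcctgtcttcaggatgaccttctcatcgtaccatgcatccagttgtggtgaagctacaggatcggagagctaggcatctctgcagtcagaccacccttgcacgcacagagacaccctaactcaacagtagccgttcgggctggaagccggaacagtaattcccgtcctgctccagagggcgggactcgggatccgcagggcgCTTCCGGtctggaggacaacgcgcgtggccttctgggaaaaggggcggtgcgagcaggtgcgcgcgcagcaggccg
Each sequence reads 5′ to 3′ on the strand of the gene. The capitals mark TGACNNNGC, the core of the antioxidant response element bound by the NRF family, in Psmb5 and Psmb6, and CCGGAAG, a core bound by ETS factors, in Psmd6 and Psmd2, each searched on both strands. In Psmd2 the match lies on the other strand and reads as the reverse complement. The third sequence searched, CCAAT, had no match in these 4 windows.

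Peaks at these starts were found in both CSF1R+ and CSF1R- cells. The Psmb5 peak had a fold enrichment of 18.2 to 22.1 in the CSF1R+-BM libraries and 18.9 to 22.4 in the CSF1R--BM libraries. In spleen it was 21.8 to 27.6 in CSF1R+ and 17.5 to 21.4 in CSF1R- libraries. The Psmd2 peak ranged from 16.3 to 20.1 in CSF1R+-BM, 22.0 to 23.7 in CSF1R--BM, 15.7 to 21.8 in CSF1R+-Spleen and 13.8 to 18.7 in CSF1R--Spleen. Over the 38 windows, TGACNNNGC occurred in 6 (15.8%), namely those of Psmb5, Psmb6, Psmc6, Psmd9, Psmd12 and Psme4. All 32851 windows of the same length, which were not chosen by their peaks, held it in 12.4%. The windows kept for the 6868 tested genes held it in 15.1%. CCAAT was in 12 windows of proteasome genes (31.6%), against 37.4% of all windows and 38.1% of those of tested genes. CCGGAAG was in 15 (39.5%), against 8.86% of all windows and 21.9% of those of tested genes. These letter matches describe the windows and are not evidence of binding.

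In the comparison of B-MF with Mo-MF, proteasome genes differed little and not all in 1 direction. In B-MF 3 of 14 core particle genes and 3 of 4 chaperones of core assembly were higher, 1 regulatory particle gene was higher and 1 lower, and the activators Psme3 and Psme2b were lower. Of the 46 genes, 44 had a mean of at least 0.1 corrected counts per cell and were tested with limma on log2(mean corrected count + 0.1). Psma8, a testis form of an alpha subunit, stayed below that level at 0.035 to 0.049 in the 4 libraries, as did Psmc3ip at 0.055 to 0.075. Of the 44, 7 were higher and 3 lower in B-MF at an adjusted p of 0.05. Of all 8633 genes tested 22.6% were higher and 16.9% lower. The share of higher genes depended on the setting, and with an intensity trend in limma 19 of the 44 and 2292 of the 8633 were higher. Both B-MF libraries lay above both Mo-MF libraries in 28 of the 44 and below them in 11, against 40% and 29.6% of all tested genes. The median log2 difference, B-MF minus Mo-MF, was 0.07 for the 44 genes and 0.03 for all genes. No proteasome gene differed by over 0.5 on this scale and the largest difference was 0.32, whereas 8.82% of all tested genes did, and 11.7% of those with a mean of at least 1. The 95% confidence intervals of the 44 differences reached at most 0.16 to either side.

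**Figure D1:**
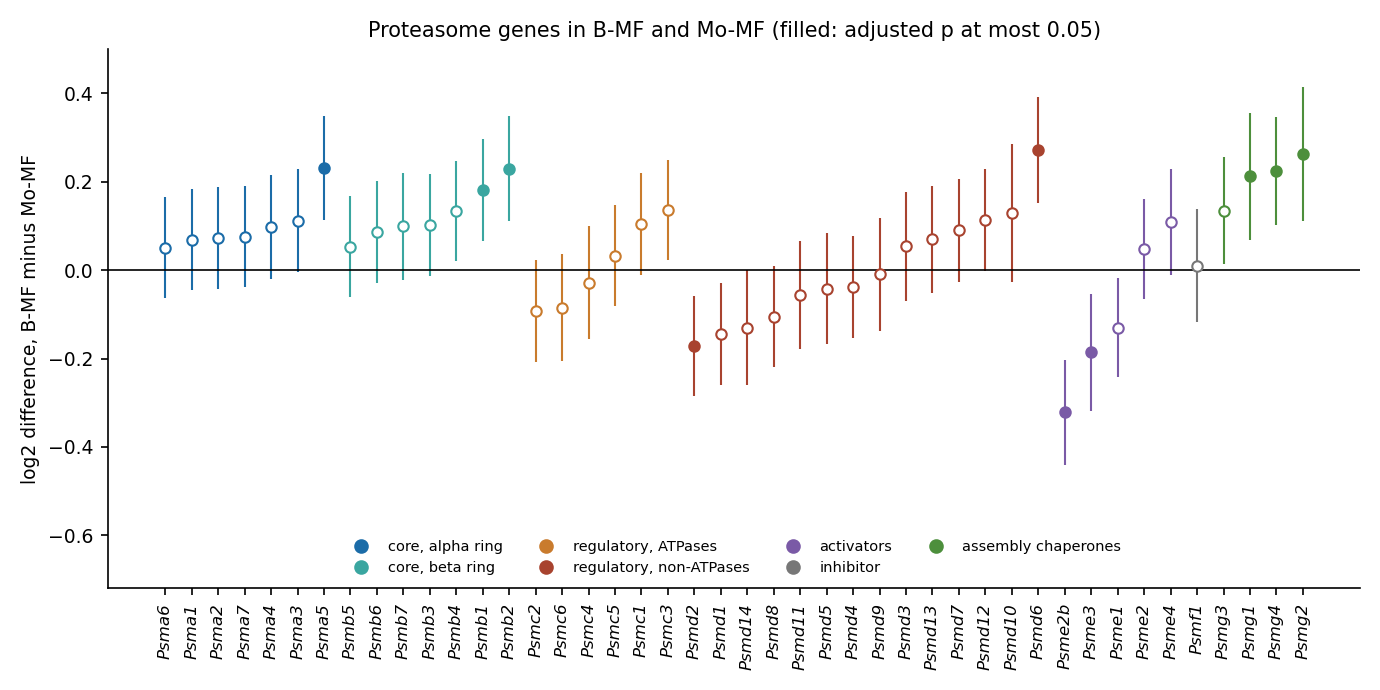
Log2 difference in mean corrected count per cell between B-MF and Mo-MF (vertical axis) for each of the 44 tested proteasome genes (horizontal axis), 2 libraries a group. Points are limma estimates, bars are 95% confidence intervals, and filled points passed an adjusted p of 0.05. All 14 core particle genes lie above 0, while regulatory particle genes lie on both sides.

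All 14 tested core particle genes had a positive difference, as did 4811 of all 8633 tested genes. The differences ranged from 0.05 to 0.23 with a median of 0.10. In all 14 genes both B-MF libraries lay above both Mo-MF libraries, as in 40% of all tested genes. In the alpha ring, which forms the gate of the barrel, only Psma5 passed the test. Its mean corrected count was 2.14 and 2.07 for B-MF, against 1.80 and 1.75 for Mo-MF. The groups did not overlap, and the log2 difference was 0.23 ± 0.05 (SE; limma adjusted p = 0.0084). The other 6 alpha ring genes differed by 0.05 to 0.11 and did not pass.

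In the beta ring, Psmb2 and Psmb1, structural members without an active site, passed the test. Psmb2 had 3.08 and 3.02 corrected counts in B-MF against 2.54 and 2.64 for Mo-MF, differing by 0.23 ± 0.05 (limma adjusted p = 0.0088). Psmb1 had 4.78 and 4.65 against 4.16 and 4.13, a difference of 0.18 ± 0.05 (limma adjusted p = 0.021). None of the catalytic subunits passed, although Psmb6 and Psmb7 each did in 4 of 17 alternatives. Psmb5 stood at 3.58 and 3.49 for B-MF against 3.403 for either Mo-MF library, with a log2 difference of 0.05 and a 95% interval from -0.06 to 0.17. Psmb6 had 6.71 and 6.65 against 6.21 and 6.37, a difference of 0.09 (-0.03 to 0.20). Psmb7 had 1.47 and 1.39 against 1.33 and 1.32, a difference of 0.10 (-0.02 to 0.22).

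The regulatory particle showed no common direction. Of its 20 genes 9 had a positive and 11 a negative difference, with a median of -0.02. No ATPase passed the test, and the 6 of them ranged from -0.09 to 0.14. Among the non-ATPases Psmd6, a lid subunit, was the 1 gene higher in B-MF. It had 1.60 and 1.54 corrected counts in the B-MF libraries against 1.26 and 1.30 for Mo-MF, differing by 0.27 ± 0.05 (limma adjusted p = 0.0040). This was the largest positive difference of any proteasome gene. Psmd2, a scaffold of the base that receives ubiquitin carriers, was the 1 gene lower in B-MF. It had 2.29 and 2.31 against 2.61 and 2.60, a log2 difference of -0.17 ± 0.05 (limma adjusted p = 0.025). Psmd1, the other large scaffold of the base and named here after its values were seen, lay just outside the threshold with a difference of -0.15 (limma adjusted p = 0.0501). It passed in 13 of 17 alternatives, with differences of -0.22 to -0.07. The remaining 11 non-ATPases lay between -0.13 and 0.13.

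Of the activators, Psme2b and Psme3 were lower in B-MF. Psme3, which forms the nuclear activator, had 0.407 and 0.366 corrected counts in B-MF against 0.453 in either Mo-MF library, a log2 difference of -0.19 ± 0.06 (limma adjusted p = 0.034). Its call was lost at a pseudocount of 0.01, without a filter on low values and without the cluster led by mitochondrial genes. Over all alternatives the Psme3 difference ranged from -0.25 to -0.06. Psme2b had 0.157 and 0.146 against 0.212 and 0.216, a difference of -0.32 ± 0.05 (limma adjusted p = 0.0017). Its parent gene Psme2 did not follow, at 3.10 and 3.11 against 3.01 and 2.99 (difference 0.05, limma adjusted p = 0.49). Psme1, the partner of Psme2, had 3.53 in both B-MF libraries against 3.89 and 3.86, a difference of -0.13 (limma adjusted p = 0.068) that passed in 10 of 17 alternatives. Psme4, an activator acting in the nucleus, differed by 0.11 (limma adjusted p = 0.13) and the inhibitor Psmf1 by 0.01 (limma adjusted p = 0.90).

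Of the chaperones that build the core particle 3 of 4 passed the test, all higher in B-MF, where 22.6% of all tested genes were higher. Psmg1 and Psmg2 form the pair that assembles the alpha ring. Psmg2 had 0.341 and 0.291 corrected counts in B-MF against 0.248 and 0.244 for Mo-MF, differing by 0.26 ± 0.07 (limma adjusted p = 0.014). The Psmg2 call was lost without a filter on low values, and when cycling-like and neutrophil-like clusters were both left out. Psmg1 had 0.292 and 0.253 against 0.219 and 0.223, a difference of 0.21 ± 0.06 (limma adjusted p = 0.027) whose call was lost in 10 of 16 alternatives. Of the second pair, Psmg4 had 1.13 and 1.15 against 0.933 and 0.989, a difference of 0.22 ± 0.05 (limma adjusted p = 0.011). Psmg3 had 0.531 and 0.4998 against 0.462 and 0.459, a difference of 0.13 that did not pass (limma adjusted p = 0.076). In all 4 genes the B-MF libraries lay above the Mo-MF libraries, as in 40% of all tested genes.

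Which genes passed changed with the library left out. In these fits the group with 1 library has no spread of its own and is assumed to vary like the other group, so the counts also reflect which pair of libraries gave the spread. Without Mo-MF replicate 1 only 1 gene was higher and 1 lower, and without Mo-MF replicate 2 the counts were 4 and 1. Without B-MF replicate 1 they were 13 and 9, and without B-MF replicate 2 they were 19 and 6. Of the 10 calls, 2 were kept without Mo-MF replicate 1 (Psmg2 and Psme2b), 5 without Mo-MF replicate 2 and all 10 without either B-MF library. Psme2b passed in all 16 alternatives that included it.

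Of 29 genes known to act with the proteasome 27 were in the table, and 7 of these were higher and none lower in B-MF (limma, adjusted p of 0.05), against 22.6% and 16.9% of all tested genes. Their median log2 difference was 0.06, against 0.03 for all genes. The largest differences were in Nfe2l2, the oxidative stress regulator NRF2, and in Uba6, an enzyme that activates ubiquitin. Nfe2l2 had 4.07 and 3.92 corrected counts in B-MF against 3.06 and 3.04 for Mo-MF, differing by 0.38 ± 0.05. Uba6 had 0.469 and 0.444 against 0.372 and 0.369 (difference 0.24), a call lost without either Mo-MF library (limma adjusted p up to 0.074). Also past the threshold were Pomp, the maturation factor of the core particle, the deubiquitinase Usp14, the unfolding ATPase Vcp and its cofactor Ubxn1, at differences of 0.17 to 0.20. Nfe2l1, which drives proteasome genes when the proteasome is inhibited, differed by 0.11 with an interval from -0.001 to 0.23 and did not pass.

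Summed over the core particle genes, transcripts were more abundant in B-MF. The transcript sums of the regulatory particle genes, counted without Sem1 and Adrm1, overlapped or were lower in B-MF, depending on the cells included. Proteins and assembled particles were not measured. For the core particle genes the sums came to 47.3 and 46.7 corrected counts per B-MF cell, against 43.1 and 43.7 per Mo-MF cell. As a share of all counts that was 0.248% and 0.2498%, against 0.227% and 0.231%. The regulatory particle summed to 33.4 and 32.5 against 33.2 and 33.5, so the groups overlapped. The ratio of core to regulatory sum came to 1.42 and 1.44 for B-MF, against 1.30 for either Mo-MF library. No test was made of these sums. Cycling-like cells made up 7.43% and 6.61% of B-MF and 3.98% and 4.23% of Mo-MF libraries. Without cycling-like and neutrophil-like clusters the core sums were 45.9 and 45.6 against 43.1 and 43.6, and the log2 ratio of the groups went from 0.115 to 0.078, still with no overlap. The regulatory sums were then 32.2 and 31.6 against 33.3 and 33.5, so that the groups no longer overlapped and B-MF was lower, and their log2 ratio went from -0.02 to -0.07. This holds for the genes of the symbol rule only. In the same cells Sem1, left out of these sums, had 8.36 and 8.72 corrected counts in B-MF against 7.44 and 7.505 in Mo-MF. Adrm1, also left out, had 0.989 and 0.937 against 1.067 and 1.065.

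Clusters of cells within a culture differed more than the cultures did. Cells were clustered without any proteasome gene, and clusters are named by their leading genes. In B-MF libraries the core particle summed to 41.7 and 42.0 in the cluster led by Pf4 and Clec4n (4647 B-MF cells) and to 50.3 and 51.3 in the cluster led by Fabp3 and St3gal5 (4531 B-MF cells). In Mo-MF libraries it summed to 34.8 and 35.7 in the cluster led by Gm42418, Mgll and Apoe (2839 Mo-MF cells). It reached 42.9 and 43.5 in the cluster led by Bex1 and Arg1 (2787 cells) and 52.6 and 52.9 in the one led by Ly6a and Ccl7 (2350 cells). The regulatory particle had the same order within each culture, at 27.6 to 28.0 and 36.0 to 36.9 in the 2 large B-MF clusters. In the 3 large Mo-MF clusters it was 26.1 to 26.5, 34.2 and 41.8. The lowest core sums of the clusters shown stood in a cluster led by mitochondrial genes and Malat1, at 32.5 and 33.4 for B-MF, 32.3 and 32.6 for Mo-MF. That cluster held 5.52% and 3.98% of B-MF cells but 1.75% and 1.5% of Mo-MF cells. Without it the log2 ratio of the core sums was 0.130. Total corrected counts per cell differed as well. They were 18240 to 18630 and 19180 to 19650 in the 2 large B-MF clusters. In the 3 large Mo-MF clusters they were 18620 to 18730, 19420 to 19490 and 19470 to 19570. In the cluster led by mitochondrial genes they were 17260 to 17300 for B-MF and 17310 to 17420 for Mo-MF. The part of these totals in the sums was not tested. Clusters were built from the same cells, so these values are a description without a test.

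**Figure D2:**
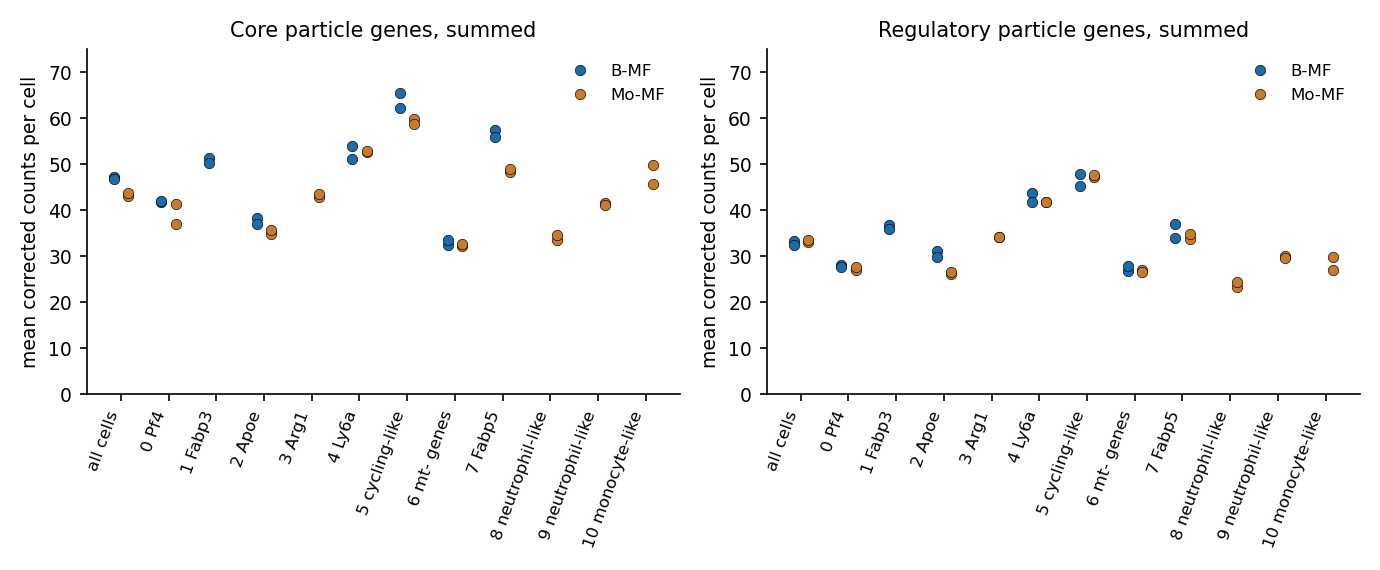
Summed mean corrected counts per cell of the core particle genes (left) and the regulatory particle genes (right) in each culture library, over all cells and in each cluster with at least 10 cells in that library; a cluster of 58 mixed cells is left out. Each point is 1 library, and the spread between clusters, with core sums from about 32 to 65, exceeds the gap between B-MF and Mo-MF over all cells.

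Cycling-like cells carried more proteasome transcripts in both cultures. The cluster met the cell cycle markers (its leading genes were Birc5, Cenpf, Ube2c and Mki67) and held 389 and 352 B-MF and 193 and 228 Mo-MF cells. The core particle summed to 65.4 and 62.2 in cycling-like B-MF, against 45.9 and 45.6 in the other B-MF cells. In Mo-MF it was 59.8 and 58.7 against 43.1 and 43.6. The regulatory particle summed to 47.8 and 45.4 in cycling-like and 32.2 and 31.6 in the other B-MF cells, and to 47.2 and 47.6 against 33.3 and 33.5 in Mo-MF. Of the 44 genes, 41 were higher in cycling-like cells in all 4 libraries, as were 63.8% of all tested genes. The median log2 difference was 0.50 for the 44 genes and 0.25 for all genes. Total corrected counts per cell were close, at 19500 to 19920 in cycling-like and 18640 to 19130 in the other cells.

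By symbol group, the Psmg assembly chaperones had the largest median difference in cycling-like cells, 0.68, and the activators the smallest, but these chaperones were spread widely. The chaperones counted with the non-ATPases differed by 0.56 to 0.74 (Psmd5), 0.72 to 0.86 (Psmd9) and 0.36 to 0.51 (Psmd10). Psmg2 was 1.06 to 1.26 higher on the log2 scale across the 4 libraries and Psmg1 0.66 to 0.85, whereas Psmg3 differed by 0.28 to 0.76 and Psmg4 by 0.09 to 0.35. The ATPases had a median of 0.58, the non-ATPases 0.50, the alpha ring 0.49 and the beta ring 0.47. The activators had a median of 0.13. Psme1 differed by 0.02 to 0.27, Psme4 by -0.21 to 0.18 and Psme2b by -0.06 to 0.10, while Psme3 was 0.50 to 0.72 higher. Psma7, named after its values were seen, was the core particle gene with the smallest difference, at 0.28 and 0.18 for B-MF, 0.11 and -0.03 for Mo-MF. Psmc3ip, the recombination factor outside the particle groups, differed by 1.62 to 2.10.

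**Figure D3:**
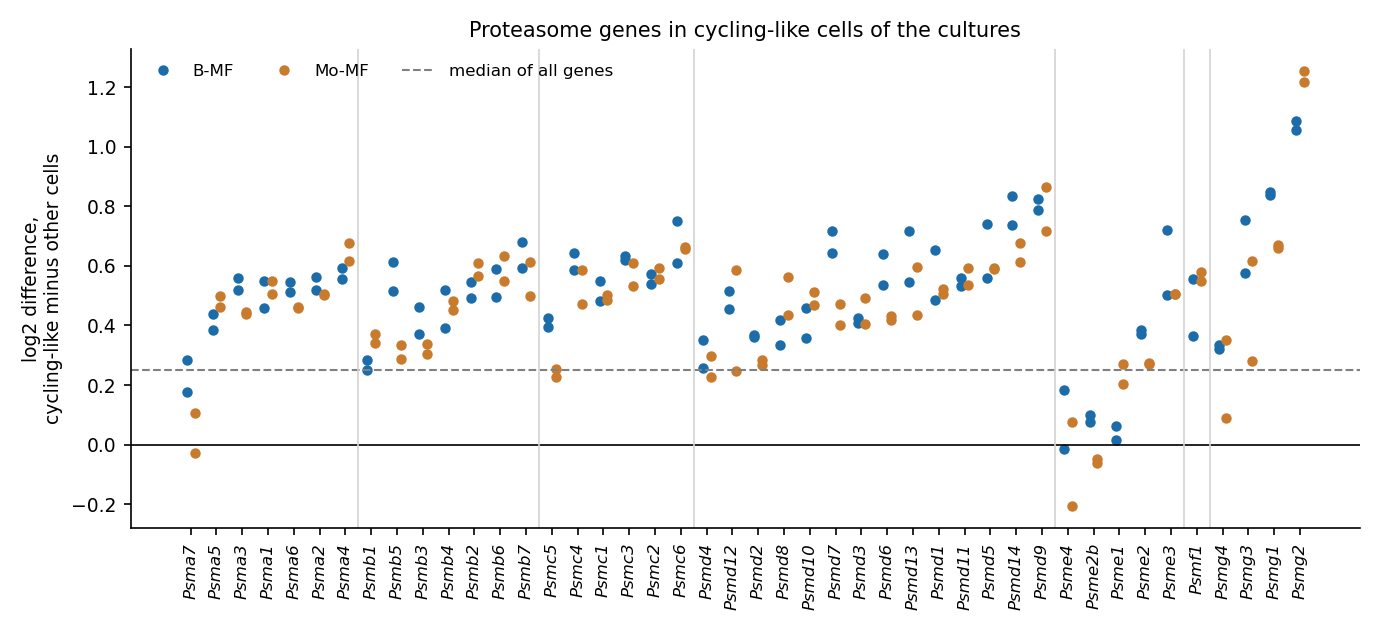
Log2 difference in mean corrected count per cell between cycling-like cells and the other cells, without neutrophil-like ones (vertical axis), for the 44 tested proteasome genes ordered by particle (horizontal axis; grey lines part the groups in the order alpha ring, beta ring, ATPases, non-ATPases, activators, inhibitor and chaperones). Each point is 1 library, and most genes lie above the dashed median of all genes, 0.25, with Psmg2 highest and Psme4 and Psme2b around 0.

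The standard catalytic subunits were then set against their immunoproteasome counterparts. Psmb8 was lower in B-MF, at 5.02 and 5.01 corrected counts against 6.12 and 5.99 in Mo-MF, with a log2 difference of -0.27 ± 0.05 (limma adjusted p = 0.0035). Psmb9 was lower as well, at 2.23 and 2.13 against 2.50 and 2.45, a difference of -0.17 ± 0.05 (limma adjusted p = 0.030). Psmb10 was higher in B-MF, at 2.74 and 2.70 against 2.41 and 2.43, a difference of 0.16 ± 0.05 (limma adjusted p = 0.032). The 3 subunits thus did not move together. Leaving out either Mo-MF library ended the calls of Psmb9 and Psmb10, and leaving out Mo-MF replicate 1 that of Psmb8 (limma adjusted p = 0.056), in fits where the B-MF pair alone gave the spread. Both Psmb9 and Psmb10 also missed the threshold at a pseudocount of 0.01, Psmb9 without the cluster led by mitochondrial genes and Psmb10 without the neutrophil-like clusters. Over all alternatives the Psmb10 difference ranged from 0.11 to 0.18 and that of Psmb9 from -0.21 to -0.13.

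Ratios of 2 genes depend on how well each transcript is captured, so only their differences between cells are described. Psmb5 over Psmb8 gave 0.712 and 0.698 for B-MF, against 0.556 and 0.568 for Mo-MF. That of Psmb6 to Psmb9 was 3.01 and 3.12 against 2.49 and 2.60. For both pairs the ratio was higher in B-MF with no overlap. Psmb7 over Psmb10 was slightly lower for B-MF, at 0.537 and 0.514 against 0.555 and 0.542. Without neutrophil-like clusters it was 0.537 and 0.514 against 0.543 and 0.534, so the groups overlapped. With cycling-like clusters left out as well it was 0.506 and 0.493 against 0.527 and 0.520, with no overlap. In cycling-like cells the Psmb5 to Psmb8 ratio went in opposite directions in the cultures, to 0.807 and 0.746 for B-MF but 0.456 and 0.433 for Mo-MF. In the same cells Psmb8 stood at 6.57 in both B-MF libraries, against 4.90 in the other cells, and at 9.50 and 9.68 in Mo-MF, against 6.04 and 5.90. The Psmb7 to Psmb10 ratio was higher in cycling-like cells of both cultures, at 0.981 and 0.863 for B-MF, 0.906 and 0.846 for Mo-MF. There Psmb7 was higher than in the other cells in all 4 libraries, with log2 differences of 0.50 to 0.68. Psmb10 was lower in all 4, with log2 differences of -0.23 to -0.13.

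**Figure D4:**
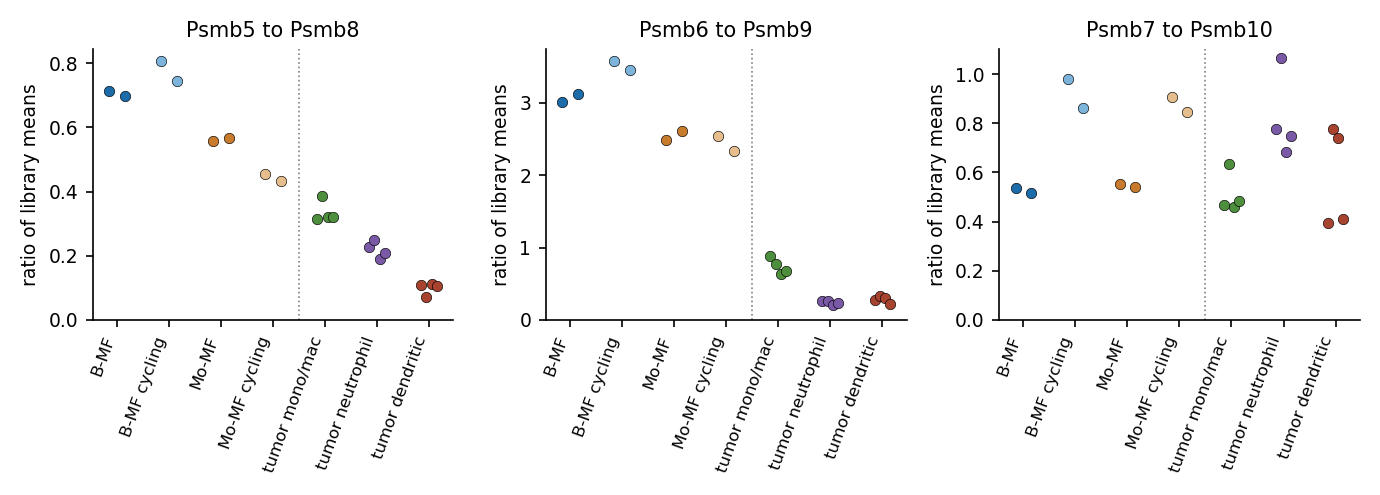
Ratio of the library means of each standard catalytic subunit to its immunoproteasome counterpart (vertical axes) in all B-MF and Mo-MF cells, their cycling-like cells, and classes of tumor cells (horizontal axes). Each point is 1 library, and the dotted line parts the 2 separately normalized tables, across which levels and ratios are not compared. Among the cultures the Psmb5 to Psmb8 ratio is 0.70 to 0.71 in B-MF and 0.56 to 0.57 in Mo-MF. Among the tumor cells it is 0.31 to 0.39 in monocyte/macrophage-like and 0.07 to 0.11 in dendritic-like cells.

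In the tumor, proteasome transcripts differed between classes of cells. Over all cells the core particle summed to 19.1, 13.6, 16.5 and 15.4 corrected counts a cell from library 2 to library 5, and the regulatory particle to 11.5, 8.14, 9.69 and 8.80. Library 2, with 36.9% neutrophil-like cells, had the highest sums and library 3, with 63.2%, the lowest. The part of these shares in the sums was not tested. Within a class the libraries were closer. In monocyte/macrophage-like cells (762 to 1924 a library) the core particle summed to 25.1, 23.0, 24.0 and 24.5, and in neutrophil-like cells (1155 to 1692 a library) to 8.54, 8.42, 9.19 and 8.98. The regulatory particle summed to 13.2 to 15.2 in the first class and 5.10 to 5.32 in the second. As a share of all counts, the core particle took 0.273% to 0.2999% in monocyte/macrophage-like and 0.111% to 0.122% in neutrophil-like cells.

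Of the 46 genes 39 had a mean of at least 0.1 corrected counts in the tumor table. Of these, 38 were higher in monocyte/macrophage-like than in neutrophil-like cells in all 4 libraries, as were 70.7% of the 5905 genes at that level. A difference of at least 2-fold in all 4 libraries, after adding 0.1 to each mean, was seen in 24 of the 39 and in 24.2% of the 5905. The median log2 difference was 1.28 for the 39 genes, against 0.57 for all genes. Because classes were formed from clusters of the same cells, no test was made.

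The catalytic subunits were more abundant in monocyte/macrophage-like cells as well. Psmb5 had 1.38, 1.25, 1.35 and 1.30 corrected counts in monocyte/macrophage-like cells of libraries 2 to 5 and 0.437, 0.381, 0.408 and 0.426 in neutrophil-like cells. Psmb6 was 2.90 to 3.67 times and Psmb7 2.17 to 2.32 times as abundant in the former. Their counterparts behaved unevenly. Psmb8 was 1.94 to 2.28 times and Psmb10 3.401 to 3.86 times as abundant in monocyte/macrophage-like cells. Psmb9 had nearly equal levels, at 1.87, 1.69, 2.20 and 2.13 against 1.69, 1.59, 2.06 and 2.14. The Psmb6 to Psmb9 ratio was accordingly 0.628 to 0.878 in monocyte/macrophage-like and 0.210 to 0.265 in neutrophil-like cells.

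The genes chosen here after their values were seen show the range within the particles. Psmd1, a scaffold of the base, had the largest difference of the 39, at 1.79 to 2.18 on the log2 scale, followed among the core genes by Psma4 at 1.65 to 1.81. The ATPase Psmc6 differed least among the ATPases, at 0.33 to 0.61, and the ubiquitin receptor Psmd4 by 0.57 to 0.73. Psmd10, an assembly chaperone of the base rather than a stable subunit, differed by 0.21 to 0.43. Psmg4 was 1.53 to 1.75 higher, whereas Psmg1, Psmg2, Psmg3 and Psmf1 had means under 0.1 over all tumor cells and were not counted. Among the activators Psme1 had 4.47, 3.22, 4.29 and 4.15 corrected counts in monocyte/macrophage-like and 1.61, 1.55, 2.003 and 1.74 in neutrophil-like cells. Psme2b alone did not separate the classes, with differences of -0.01 to 0.07.

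**Figure D5:**
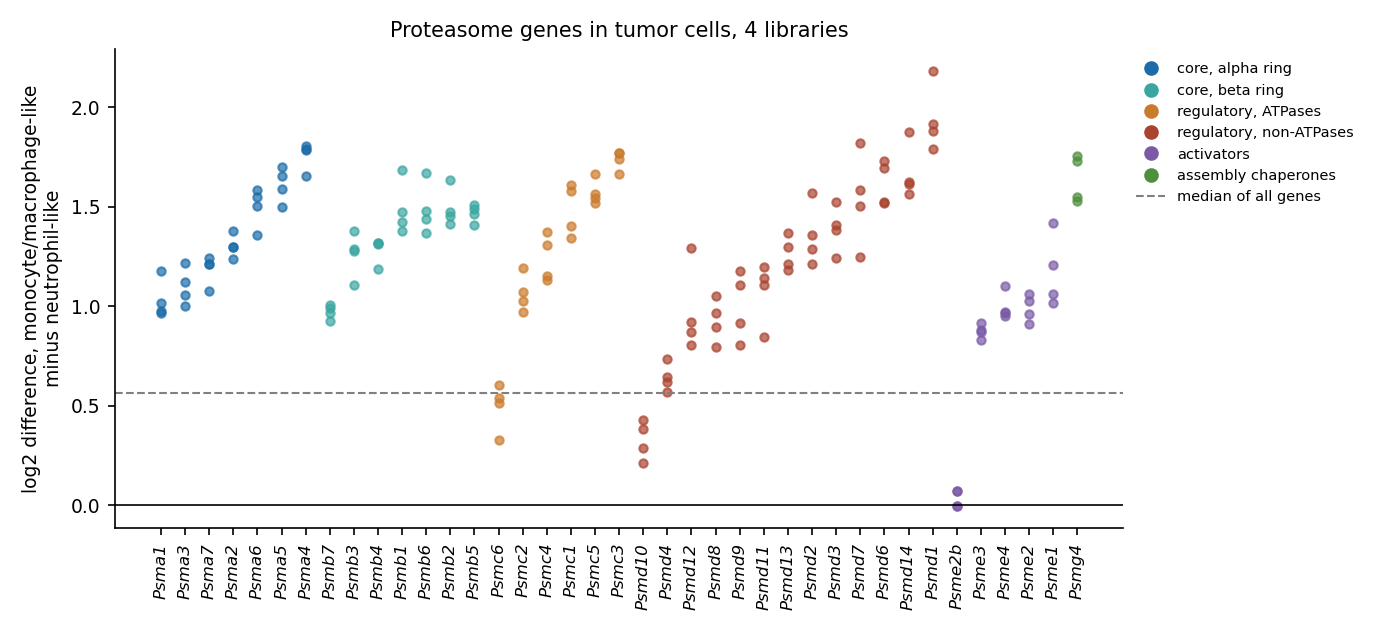
Log2 difference in mean corrected count per cell, with 0.1 added, between monocyte/macrophage-like and neutrophil-like tumor cells (vertical axis) for the 39 proteasome genes with a mean of at least 0.1 (horizontal axis, ordered within each particle). Each point is 1 of 4 libraries; 38 genes lie above 0 in every library and most above the dashed median of all genes, 0.57, with Psmd1 highest and Psme2b near 0.

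Library 3 had the lowest sums of Psme1 with Psme2 and of the immunoproteasome subunits within both classes. In monocyte/macrophage-like cells Psme1 and Psme2 together had 5.28 corrected counts in library 3 and 6.91 to 7.35 in the others. The sum of Psmb8, Psmb9 and Psmb10 was 6.08 against 7.68 to 8.02. In neutrophil-like cells the same sums were 2.59 against 2.94 to 3.45, and 3.45 against 4.06 to 4.69. The core particle sum of library 3 was also the lowest of the 4 in both classes, but by a smaller margin (23.0 against 24.0 to 25.1, and 8.42 against 8.54 to 9.19). The classes held different clusters by library. The cluster led by H2-DMb1 and H2-Ab1, which had the highest sum of Psme1 and Psme2 in the monocyte/macrophage-like class, gave 83 of 762 such cells in library 3 and 394 of 1924 in library 2. Inside that cluster the sum of Psme1 and Psme2 was 8.25 in library 3 and 11.5 to 11.8 in the others. Library 3 was not the lowest in every cluster. In the neutrophil-like cluster led by Acod1 and G0s2 that sum was 3.69 in library 3 and 3.38 in library 2. In the cluster led by Ccr2 and Lyz2 it was 5.14 in library 3 and 4.85 in library 5. The part of the cluster shares in the sums of library 3 was not tested.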

How the data were processed

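The authors sequenced 10x Genomics libraries, counted transcripts with Cell Ranger on mm10, filtered cells on detected genes and applied SCTransform in Seurat. The deposited values are natural log values, ln(1 + corrected count), and raw counts were not used here. Inverting them gave whole numbers within 0.01 for every value above 0. The sources used here do not say how doublets were treated, and no caller was run. Per library, corrected counts were averaged over cells, and log2(mean + 0.1) of B-MF and Mo-MF was compared with limma 3.58.1 for the 8633 genes whose mean reached 0.1 (two-sided, Benjamini-Hochberg adjusted). Scripts were tested on simulated data. Cells were clustered with Leiden (leidenalg 0.10.2, resolution 0.5, 2000 variable genes), without Psma to Psmg genes. A cluster took the name of the list raised most, among lists with at least 3 markers and 50% of their markers raised, and was left unnamed where no list qualified or another list had more of its 10 leading genes. ATAC-seq peaks were called by the authors per library with MACS2 on BWA alignments to mm10. Their deposited files hold −log10 q-values and fold enrichment ratios. A peak counted with 1 base of overlap. A deposited list that joins the peaks of the 12 libraries was not used. The members and lists were chosen with earlier results of these data known. No column of another sample was present. Named were the catalytic subunits and their counterparts, activators, inhibitor and chaperones, and in each ring or subunit class up to 3 genes past the threshold in each direction, and the 3 largest of the proteasome-associated list, of which 1 is not reported here.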

Additional observations from a re-analysis of the deposited data

Results flagged for a closer look

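The 4 tumor libraries were examined for a value far from the other 3, over 57 values (each gene with a mean of at least 0.1, the 3 immunoproteasome subunits, and the sums and ratios by class), and 3 stood apart by Dixon's criterion at 95%. Chance flags about 1 in 20 such groups. The ratio of Psmb6 to Psmb9 over all cells was 0.661 in library 2 and 0.419 to 0.455 in the others. In monocyte/macrophage-like cells, the ratio of Psmb5 to Psmb8 was 0.387 in library 3 against 0.314 to 0.321, and that of Psmb7 to Psmb10 was 0.635 in library 3 against 0.460 to 0.485. Library 2 had the lowest share of neutrophil-like cells, and its part in the ratio over all cells was not tested. Within the monocyte/macrophage-like class, the cluster led by H2-DMb1 and H2-Ab1 gave 83 of 762 cells in library 3 and 394 of 1924 in library 2, and the part of such shares in the other ratios was not tested.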

How the results depend on the processing

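The number of proteasome genes called in the comparison of B-MF with Mo-MF depended on the settings more than the direction did: of the single genes followed, none changed sign past the threshold, 40 values lost and 37 gained the threshold, and 340 stayed on their side. Against 7 higher and 3 lower genes, the counts were 15 and 7 with a pseudocount of 1, 18 and 7 among genes with a mean of at least 1, 11 and 5 with libraries scaled to the same total, 14 and 8 with libraries centred on their median gene, 14 and 9 with the mean of the deposited log values, and 19 and 8 with an intensity trend. Lower genes numbered 6 without neutrophil-like clusters, 5 without cycling-like clusters and 6 without either. Counts among all genes are not given for these subsets, so a shift particular to proteasome genes cannot be read from them. Leaving out 1 library gave 1 to 19 higher and 1 to 9 lower proteasome genes, and 1112 to 3854 higher and 863 to 2950 lower genes among all genes. Among all genes, 1157 were higher and 627 lower at a mean of at least 1, where fewer genes were tested, and 2251 were lower with centred libraries. Under the other settings, the higher and lower genes among all genes numbered 2186 and 1450 with a pseudocount of 1, 2403 and 1642 with scaled libraries, 2749 higher with centred libraries, 2129 and 1436 with the mean of log values, and 2292 and 1561 with the trend. The cause of the other shifts was not tested.

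The median difference of the proteasome genes was 0.036 with the mean of log values and 0.029 without either kind of cluster. That of the core particle was 0.075 with a pseudocount of 1, 0.070 with the mean of log values and 0.060 without either kind of cluster, so it stayed positive. That of the regulatory particle was -0.047 without neutrophil-like clusters, -0.043 without cycling-like clusters, -0.061 without either, and -0.043 to 0.032 with 1 library left out. The log2 ratio of the core sums was 0.094, 0.098 and 0.078 in these 3 subsets and 0.130 without the cluster led by mitochondrial genes, an alternative chosen after seeing the data. That of the regulatory sums was -0.049 without neutrophil-like clusters and -0.068 without either kind. The log2 ratio for Psmb5 to Psmb8 was 0.290 without cycling-like clusters and 0.286 without either, for Psmb6 to Psmb9 0.218 without neutrophil-like clusters and 0.188 without either, and for Psmb7 to Psmb10 -0.100 without cycling-like clusters. The median difference between tumor classes was 1.43 at a clustering resolution of 0.25 and 1.15 with equal totals, and that of cycling-like Mo-MF cells was 0.483 and 0.522 at resolutions of 0.25 and 1.0.

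With the replicate number as a block, 7 proteasome genes were higher and 4 lower, and all 10 calls were kept. The counts among all genes under this setting are not given. Deviations of same-numbered libraries correlated at r = 0.13 over 8633 genes (across genes, which are not independent), and with only 2 pairs the libraries share no more than a number.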

Other observations

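Small classes of tumor cells differed in their proteasome transcripts. Osteoclast-like cells, 9 to 27 a library and led by Ctsk, Acp5 and Mmp9, had core particle sums of 35.0, 34.0, 37.1 and 40.0 corrected counts a cell from library 2 to library 5. Their regulatory particle sums were 23.1 to 26.4, against 13.2 to 15.2 in monocyte/macrophage-like cells. All 10 cell cycle markers were raised in this cluster, and their part in these sums was not tested. The ratio of Psmb5 to Psmb8 ranged from 0.431 to 1.31, so it varied widely between libraries of so few cells.

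Dendritic-like cells, 22 to 30 a library and led by Tbc1d4, Fscn1 and Ccl22, had core particle sums of 19.4 to 22.5, below those of monocyte/macrophage-like cells. They had by contrast the highest activator level of the classes compared, with 20.6 to 24.1 corrected counts of Psme1 and Psme2 together against 5.28 to 7.35 in monocyte/macrophage-like cells. Psmb8, Psmb9 and Psmb10 summed to 16.3 to 18.1 against 6.08 to 8.02. Their ratio of Psmb5 to Psmb8 was 0.071 to 0.111. B-like cells, 8 to 108 a library, had core particle sums of 12.4 to 15.3, between the neutrophil-like and the monocyte/macrophage-like class in every library.

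Within the tumor monocyte/macrophage-like class, the cluster led by C1qc, C1qa and C1qb (636 cells) had core particle sums of 28.9 to 31.9 and the one led by Arg1, Pf4 and Ccl8 (986 cells) of 16.9 to 18.0, with no overlap between libraries. All 10 cell cycle markers were raised in the cluster led by C1qc and none in the one led by Arg1, and their part in this difference was not tested.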
